A study of Mus musculus with 12 samples.

Results

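Glycolysis enzymes and the transporters that bring glucose in and carry lactate out were measured by RNA sequencing in mouse lung tumours and in the normal lung tissue beside them. The 10 genes were chosen by name: Slc2a1, Hk1, Hk2, Pfkl, Aldoa, Pgk1, Eno1, Pkm, Ldha and Slc16a3. All 10 were found among the 78298 genes of the deposited table, and all 10 had enough counts to be tested among 22190 genes. The 12 libraries formed 4 groups of 3, in which tumour or normal tissue was crossed with a treatment labelled HDM (house dust mite, as the series title spells it out) or VEH. The labels call the tumours LLC, and VEH and LLC are used here as given. The labels used here state no strain, age, sex, route or length of treatment for any group, and they do not say whether the 3 libraries of a group came from separate animals, so p-values measure the spread between these samples, which may be technical. Tumours and normal tissue were dissected by hand, frozen and homogenised whole. In such bulk tissue, fewer cells of a type and less RNA per cell cannot be told apart.

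Glycolysis splits glucose into pyruvate in a chain of cytosolic reactions that yields ATP and building blocks. Glucose enters through carriers such as the one made by Slc2a1, hexokinase traps it by adding a phosphate, and phosphofructokinase commits it to the pathway. Pyruvate can enter mitochondria or be reduced to lactate, which leaves the cell through monocarboxylate carriers, and many tumours are known for high glucose uptake and lactate release even where oxygen is present. Several genes of the pathway are classic targets of hypoxia-inducible factors and of Myc.

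The starts of these genes were searched for the short letters such factors are known to bind, since the genes are often described as regulated together. The RefSeq promoter table on GRCm39 held all 10 genes, and the 250 bases before each start were searched on both strands for ACGTG and GCGTG, the cores of the hypoxia response element, for CACGTG, an E-box that contains ACGTG, and for GGGCGG, the GC box. ACGTG was in 6 of the 10 windows and in 16.57% of all 32851 promoters. GCGTG was in 4 windows and in 28.16% of all promoters. Of the 10 genes, 9 had either core, against 38.6% of all promoters, and Pkm had neither in its window. CACGTG was in the Ldha window alone among the 10 genes, at 2 places, and in 6.02% of all promoters. GGGCGG was in 7 windows and in 32.74% of all promoters. The 10 windows were rich in G and C, at 55.6% to 73.6% against a median of 52.4% over all promoters, and the shares were not matched for this. The windows of Pfkl, Aldoa, Pkm and Slc16a3 lay wholly in GENCODE exons of the gene itself, and that of Hk1 for 193 bases. The starts used lay up to 352 bases (Slc16a3) from the GENCODE canonical start. For these genes the counts are not of sequence upstream of every annotated start. A match describes letters only and is not a bound site. Slc2a1, Pgk1, Eno1 and Ldha were called higher in tumours under both treatments and Hk2 under HDM. Hk1, Pfkl and Pkm were also called higher under both, but 193 to 250 bases of their windows lay in their own exons. Stretches of sequence were taken from the 5 windows with at most 96 bases (Ldha) in such exons. Each runs 5′ to 3′ on the gene's strand and ends at or just short of a GENCODE exon of the gene, which for Ldha lies inside the span of the gene's models (chr7:46490899-46505061) and for the other 4 is its outermost exon, and capitals mark ACGTG or GCGTG on either strand (CACGT or CACGC where the other strand holds it). They are Slc2a1 at chr4:118965692-118965905 (plus strand), Hk2 at chr6:82751470-82751685 (minus strand), Pgk1 at chrX:105230456-105230705 (plus strand), Eno1 at chr4:150320915-150321072 (plus strand) and Ldha at chr7:46494978-46495131 (plus strand).
Slc2a1: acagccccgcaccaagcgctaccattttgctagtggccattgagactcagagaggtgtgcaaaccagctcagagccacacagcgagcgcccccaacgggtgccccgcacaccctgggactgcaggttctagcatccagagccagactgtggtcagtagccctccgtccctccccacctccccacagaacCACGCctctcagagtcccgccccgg
Hk2: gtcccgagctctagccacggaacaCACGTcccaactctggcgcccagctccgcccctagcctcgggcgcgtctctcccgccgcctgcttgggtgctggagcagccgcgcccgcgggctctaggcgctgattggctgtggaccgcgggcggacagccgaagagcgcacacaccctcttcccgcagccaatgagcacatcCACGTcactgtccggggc
Pgk1: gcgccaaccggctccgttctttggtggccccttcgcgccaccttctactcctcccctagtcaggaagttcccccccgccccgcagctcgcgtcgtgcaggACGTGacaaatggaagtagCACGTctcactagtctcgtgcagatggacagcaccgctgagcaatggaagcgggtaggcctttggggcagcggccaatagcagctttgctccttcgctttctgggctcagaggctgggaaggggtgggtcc
Eno1: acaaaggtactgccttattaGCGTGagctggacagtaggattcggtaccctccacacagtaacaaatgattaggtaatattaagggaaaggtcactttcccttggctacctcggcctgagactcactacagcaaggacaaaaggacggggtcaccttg
Ldha: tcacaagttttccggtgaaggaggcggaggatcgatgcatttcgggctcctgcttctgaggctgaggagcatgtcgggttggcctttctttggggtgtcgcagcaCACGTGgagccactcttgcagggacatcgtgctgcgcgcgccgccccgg
The Pgk1 stretch held ACGTG at 2 places, 150 and 131 bases before the start, and the Ldha stretch held its outermost CACGTG, 145 bases before the start.

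Libraries held 20608682 to 32765364 counts each, and the 10 genes took 0.168% to 0.315% of the counts in normal libraries and 0.594% to 0.81% in tumours. Library names carry a prefix that joins 1 normal and 1 tumour library, and 2 of the 6 prefixes join libraries of different treatment labels. Prefix M_40_2 joins normal VEH replicate 2 to an HDM tumour (replicate 2). Prefix M_37_3 joins a VEH tumour (replicate 3) to the third normal HDM library. Whether the treatment labels of these libraries are right was not tested. Results are also given without those 4 libraries where they change. Normal VEH replicate 2 stood apart from the other normal libraries in its summed proliferation markers, at 233 CPM against 62.4 to 75.0 CPM in the other 5. It had the most neutrophil marker RNA, at 849.9 CPM against 19.0 to 586 CPM, with normal HDM replicate 1 next. Its fibroblast markers were the highest (3151 CPM against at most 2392 CPM). Its endothelial markers (2156 CPM against at least 3812 CPM) and red blood cell markers (959 CPM against at least 1567 CPM) were the lowest. Its alveolar, airway, macrophage and muscle markers lay within the range of the other 5. Tumour VEH replicate 2 held the most lung epithelium among tumours, with alveolar markers summing to 9225 CPM and airway markers to 20490 CPM, against at most 2696 and 6335 CPM in the other tumours and at least 18380 and 24980 CPM in normal tissue. CPM here is the usual depth-normalised count, with libraries scaled by TMM.

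In tumours, 7 of the 10 genes were called higher than in normal tissue under VEH and 8 under HDM, and none was called lower, where a call means an adjusted p below 0.05. The background is high, since 18.2% of the 22190 genes were called higher under VEH and 23% under HDM, and 20.6% and 28.9% were called lower. The median log2 change of the 10 genes was 1.39 under VEH and 1.64 under HDM, beside -0.11 and -0.08 over all genes tested. Eno1 and Pkm, enzymes near the end of the chain, had the largest estimates among the 10, and Aldoa and Slc16a3 were called under neither treatment. Under VEH the libraries of 8 genes were higher in tumours without overlap (all but Hk2 and Slc16a3), a pattern of 23.9% of all genes, and under HDM those of 8 (all but Aldoa and Slc16a3), a pattern of 29.6%. In 6 genes (Slc2a1, Hk1, Pgk1, Eno1, Pkm and Ldha), every tumour library lay above every normal library, a pattern found in 16.4% of all genes tested.

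**Figure D1:**
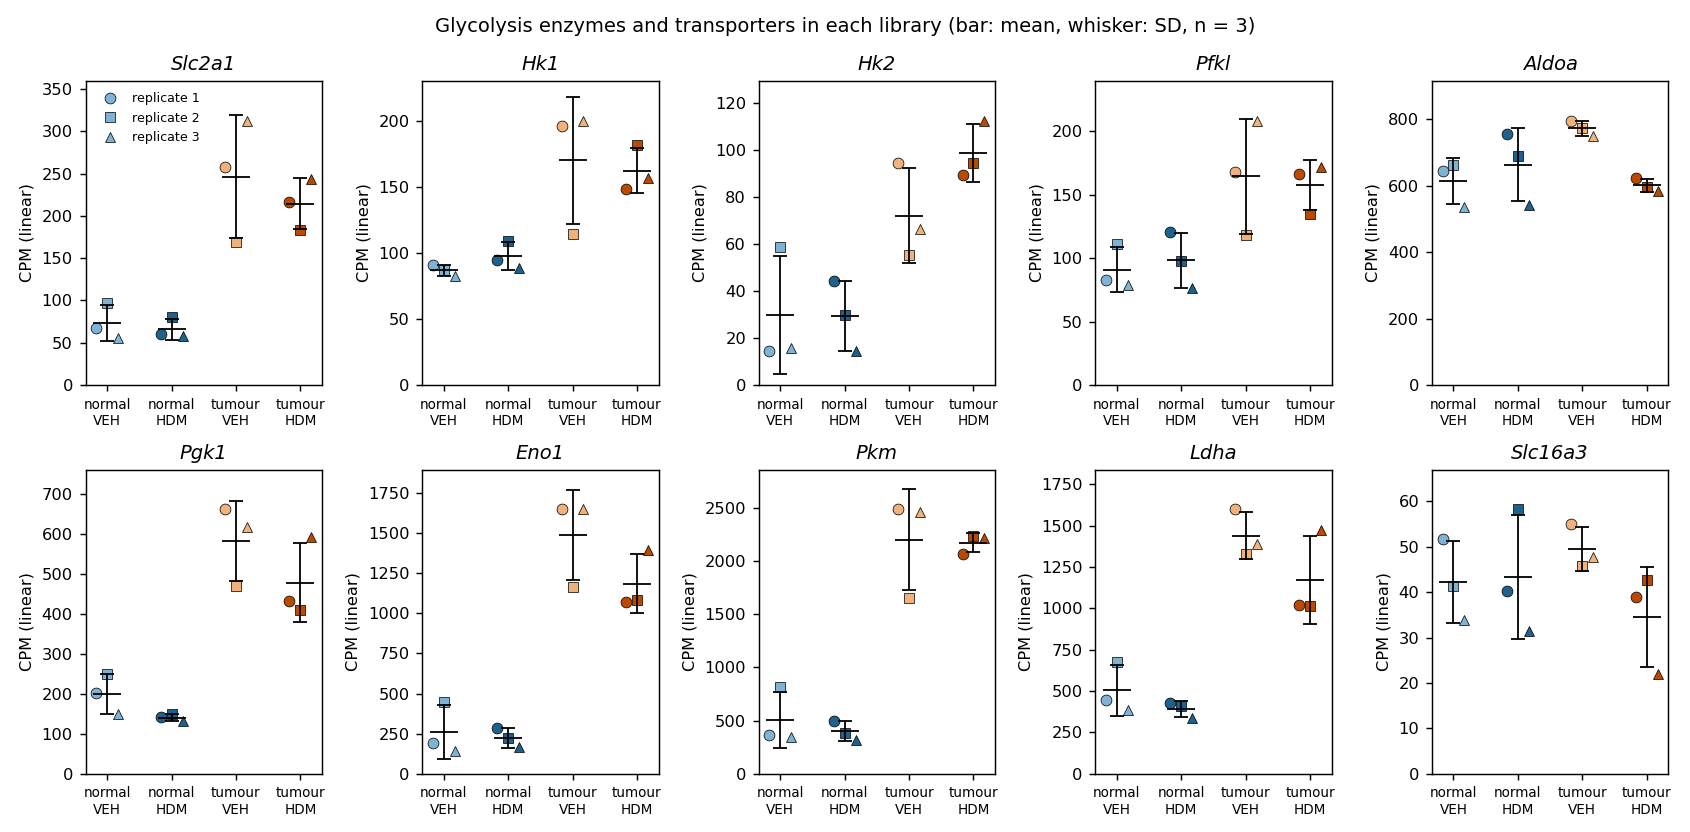
CPM (linear axes from 0) of each of the 10 genes in the 12 libraries, by group; circles, squares and triangles are replicates 1, 2 and 3, bars are means and whiskers SD (n = 3). The Pkm panel shows normal libraries between 318 and 814 CPM and tumours between 1656 and 2488 CPM, while the Aldoa panel shows both tissues between 536 and 796 CPM.

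Slc2a1 encodes GLUT1, a glucose carrier of many dividing cells and of the blood-brain barrier. It was at 67.5, 96.8 and 55.2 CPM in normal VEH, 60.05, 80.0 and 57.5 CPM in normal HDM, 258, 169 and 313 CPM in tumour VEH and 217, 184 and 243 CPM in tumour HDM. The highest normal library, VEH replicate 2, lay well below the lowest tumour, VEH replicate 2, and the tissues did not overlap. Tumour exceeded normal tissue by a log2 change of 1.75 (SE 0.27, adjusted p = 0.00105 by edgeR's quasi-likelihood test) under VEH and 1.70 (SE 0.27, adjusted p = 0.000597) under HDM, which is 3.37-fold and 3.26-fold.

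Hexokinase phosphorylates glucose on entry. Hk1, the broadly expressed form, ranged from 82.4 to 109 CPM in normal libraries and from 115 to 201 CPM in tumours, so the tissues came close without overlapping. It rose by 0.97 (SE 0.20, adjusted p = 0.00401) under VEH and by 0.74 (SE 0.20, adjusted p = 0.00986) under HDM on the log2 scale. The HDM call was lost without the 4 libraries of conflicting prefixes (0.69, adjusted p = 0.0688).

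Hk2, the inducible hexokinase of muscle and of many tumours, was uneven in normal tissue. It was at 14.6, 58.8 and 15.7 CPM in normal VEH and 44.4, 29.8 and 14.4 CPM in normal HDM, and at 94.6, 55.4 and 66.3 CPM in tumour VEH and 89.5, 94.5 and 113 CPM in tumour HDM. Normal VEH replicate 2 was above the lowest tumour, while the HDM groups did not overlap. Under HDM the log2 change was 1.74 (SE 0.55, adjusted p = 0.0221), and under VEH it was 1.28 (SE 0.54, adjusted p = 0.0849), which was not called. Without normal VEH replicate 2 the VEH value was 2.25 and called (adjusted p = 0.00294). Over the 17 alternatives the VEH value ran from 0.95 to 2.41 and was called in 4. The HDM call was lost without normal HDM replicate 2 (adjusted p = 0.0608) or 3 (adjusted p = 0.06). The 3 normal libraries with the most Hk2, VEH replicate 2 and HDM replicates 1 and 2, were also the 3 with the most neutrophil marker RNA, at 849.9, 585.9 and 82.6 CPM against 19.0 to 42.6 CPM in the other 3. The same 3 libraries also had the most macrophage and monocyte marker RNA among normal libraries, at 926, 1050 and 779.8 CPM against 196 to 335 CPM. Their library names begin with M_39 or M_40, and those of the other 3 normal libraries with M_37 or M_38. In tumours the neutrophil markers summed to 13.5 to 75.3 CPM and the macrophage and monocyte markers to 927 to 1549 CPM, and the part of these cells in the Hk2 values was not tested.

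Pfkl, the liver-type subunit of phosphofructokinase, ranged from 76.9 to 120.4 CPM in normal libraries and from 118 to 208 CPM in tumours. The tissues overlapped by a narrow margin, between normal HDM replicate 1 and tumour VEH replicate 2. Pfkl rose by a log2 change of 0.86 (SE 0.24, adjusted p = 0.0166) under VEH and 0.68 (SE 0.24, adjusted p = 0.0321) under HDM. This was the least stable of the calls made under both treatments: under VEH it was lost without normal VEH replicate 1 (adjusted p = 0.058) or 3 (0.0623) or tumour VEH replicate 3 (0.0547), and under HDM without normal HDM replicate 2 (0.077) or 3 (0.0727) or tumour HDM replicate 1 (0.0557) or 3 (0.0539), with at least 10 counts in every library (0.0696) or with a replicate block (0.0525).

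Aldoa makes the main aldolase, which cuts the phosphorylated sugar into triose phosphates. It was at 645, 662 and 536 CPM in normal VEH, 757, 689 and 542 CPM in normal HDM, 796, 773 and 749 CPM in tumour VEH and 623, 597 and 584 CPM in tumour HDM. Under VEH the tumours lay above the normal VEH libraries, and under HDM they lay within the range of normal HDM. Neither difference was called: the log2 change was 0.33 (SE 0.15, adjusted p = 0.0969) under VEH and -0.14 (SE 0.15, adjusted p = 0.448) under HDM. With library totals alone as the scaling, the VEH value was 0.47 and called (adjusted p = 0.0263).

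Pgk1 encodes phosphoglycerate kinase, which makes ATP in the later steps of the pathway. It was at 201, 249.8 and 149.96 CPM in normal VEH, 141, 148 and 131 CPM in normal HDM, 661, 468 and 617 CPM in tumour VEH and 432, 409 and 592 CPM in tumour HDM. Every tumour was above every normal library. Pgk1 rose by a log2 change of 1.54 (SE 0.22, adjusted p = 0.000791) under VEH and 1.77 (SE 0.22, adjusted p = 0.00021) under HDM.

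Eno1, the enolase that makes phosphoenolpyruvate, had a wide spread in normal tissue. It was at 189, 449 and 139 CPM in normal VEH, 283, 219.7 and 164 CPM in normal HDM, 1648, 1164 and 1648 CPM in tumour VEH and 1073, 1083 and 1396 CPM in tumour HDM. Normal VEH replicate 2 was 3.23 times the lowest normal library, VEH replicate 3, yet well below all tumours. For Eno1 the log2 change was 2.52 (SE 0.40, adjusted p = 0.00136) under VEH and 2.41 (SE 0.40, adjusted p = 0.000856) under HDM, or 5.74-fold and 5.33-fold.

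Pkm encodes the muscle-type pyruvate kinase, whose splice forms differ between resting and dividing cells. These gene counts do not separate the forms. Pkm was at 360.4, 814 and 346 CPM in normal VEH, 498, 387 and 318 CPM in normal HDM, 2488, 1656 and 2464 CPM in tumour VEH and 2069.7, 2235 and 2217 CPM in tumour HDM. The tumour HDM libraries were close together, and in tumour VEH replicate 2 was the lowest. For Pkm the log2 change was 2.12 (SE 0.33, adjusted p = 0.00119) under VEH and 2.44 (SE 0.34, adjusted p = 0.000325) under HDM, or 4.35-fold and 5.42-fold.

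Ldha makes the lactate dehydrogenase subunit that favours lactate. It was at 447, 678 and 387 CPM in normal VEH, 426, 409.9 and 334 CPM in normal HDM, 1598, 1331 and 1389.7 CPM in tumour VEH and 1022, 1011 and 1476 CPM in tumour HDM. All tumours lay above the highest normal library, VEH replicate 2. Ldha rose by a log2 change of 1.51 (SE 0.23, adjusted p = 0.00112) under VEH and 1.58 (SE 0.23, adjusted p = 0.000456) under HDM.

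Slc16a3 encodes MCT4, a lactate exporter of strongly glycolytic cells. It was at 51.8, 41.4 and 33.8 CPM in normal VEH, 40.3, 58.2 and 31.4 CPM in normal HDM, 55.0, 45.9 and 47.8 CPM in tumour VEH and 38.9, 42.7 and 22.0 CPM in tumour HDM. The tissues overlapped under both treatments. The log2 change was 0.23 (SE 0.28, adjusted p = 0.533) under VEH and -0.33 (SE 0.28, adjusted p = 0.348) under HDM, neither of them called. The gene shares exons with the opposite-strand kinase gene Csnk1d, whose counts were 255% to 995% of those of Slc16a3, so its values are uncertain. When the Csnk1d counts were added to it, a setting chosen after seeing the data, the HDM value changed sign and was called (0.33, SE 0.11, adjusted p = 0.0285); most counts of that sum are those of Csnk1d.

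**Figure D2:**
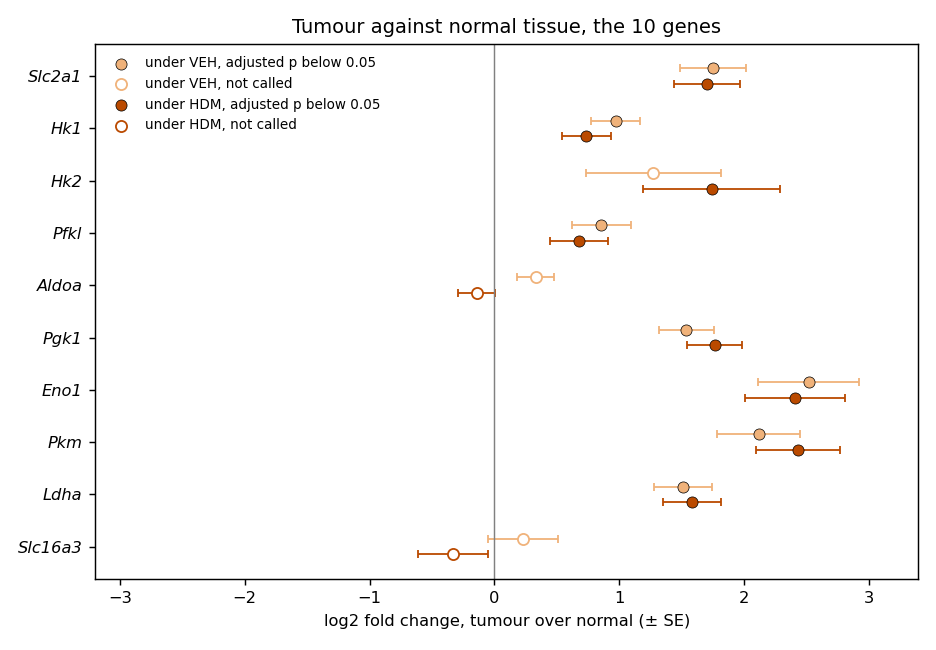
log2 fold change of tumour over normal tissue for each of the 10 genes under VEH (light) and HDM (dark), with SE; filled points were called at an adjusted p below 0.05. Estimates run from 2.52 for Eno1 under VEH to -0.33 for Slc16a3 under HDM, and open points mark Hk2 under VEH and Aldoa and Slc16a3 under both treatments.

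Among the 6 normal libraries, VEH replicate 2 was the highest for 6 of the 10 genes (and for 20.1% of all genes tested), and the other 4 genes were highest in HDM replicate 1 or 2. HDM replicate 3 was the lowest normal library for 6 genes (11.7% of all genes) and VEH replicate 3 for 4 (15%). Among tumours, VEH replicate 1 was the highest for 6 genes (13.7% of all genes) and VEH replicate 2 the lowest for 5 (25.2%), while HDM replicate 3 was the highest for Hk2 and the lowest for Aldoa and Slc16a3. Tumour VEH replicate 2 is the one with the most lung epithelial RNA given above, and the part of that RNA in its values was not tested. The highest normal library was 1.33 times the lowest for Hk1 and 4.08 times for Hk2, and the other 8 genes lay between. Among tumours this ratio ran from 1.36 for Aldoa to 2.50 for Slc16a3.

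Other cell types moved with the same contrast. All 10 proliferation markers were called higher in tumours under both treatments, summing to 62.4 to 233 CPM in normal and 750 to 1415 CPM in tumour libraries. All 10 endothelial markers were called lower (2156 to 4596 CPM and 129 to 745 CPM). Macrophage and monocyte markers summed to 196 to 1050 CPM in normal tissue and 927 to 1549 CPM in tumours, with 5 of 10 called higher and 1 lower (Marco) under VEH and 3 higher under HDM. Fibroblast markers summed to 976 to 3151 CPM and 5457 to 14080 CPM, with 4 of 8 called higher and 1 lower (Col1a2) under each treatment. Markers of red blood cells, which rely on glycolysis, summed to 959 to 3300 CPM in normal tissue and 127 to 959 CPM in tumours. Alveolar and airway markers were called lower in 3 of 10 and 1 of 8 genes under VEH and in 10 of 10 and 7 of 8 under HDM. Cardiac muscle markers summed to 18.0 to 449 CPM in normal tissue and 1.40 to 15.7 CPM in tumours. Skeletal muscle markers stayed at or below 14.4 CPM in every library, with 2 of 10 at 0 throughout. The part of these cells in the values of the 10 genes was not tested. For these marker calls the shares over all genes were 18.2% higher and 20.6% lower under VEH and 23% and 28.9% under HDM.

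Per kilobase of deposited gene length, the order of the 10 genes differed between tissues. In normal tissue Aldoa was highest, at a mean of 211 ± 23.4 CPM per kilobase (SD, n = 3) under VEH and 228 ± 37.7 under HDM, followed by Ldha, Pkm, Pgk1 and Eno1. Under VEH the libraries of each of these 5 genes overlapped with those of the next, and under HDM Pkm and Pgk1 overlapped while the other steps of this order did not. In tumours Pkm led, at 440.4 ± 94.7 CPM per kilobase under VEH and 435 ± 18.1 under HDM, with Ldha next at 435 ± 42.4 and 353 ± 80.2, and the libraries of these genes overlapped. Eno1, Aldoa and Pgk1 overlapped below them, at 276, 265 and 259 CPM per kilobase under VEH and at 220.1, 207 and 213 under HDM. Slc2a1 came next in all 4 groups, and the group means of Pfkl, Hk1, Hk2 and Slc16a3 lay below those of Slc2a1 throughout. The deposited length matched the exon length of GENCODE release M39 for 1 of the 10 genes (Pgk1), so this order depends on an annotation that is not given in the sources used here.

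Under HDM against VEH, none of the 10 genes was called in normal tissue or in tumours by edgeR's test, and DESeq2's Wald test called none either. In normal tissue the background was 0% of the 22190 genes by edgeR (5.54% at an unadjusted p below 0.05), and DESeq2 called 38 genes. The largest difference among the 10 was that of Pgk1, whose HDM libraries lay just below all VEH libraries, a pattern of 5.85% of all genes (log2 -0.51, SE 0.21, unadjusted p = 0.036, adjusted p = 0.887), and it alone had an unadjusted p below 0.05. The other 9 genes lay between -0.37 (Ldha) and 0.17 (Hk1). These values depended on normal VEH replicate 2, a library of conflicting prefix. Without this library Hk2 was at 0.96 (from -0.01), Eno1 at 0.44 (from -0.22) and Pgk1 at -0.32, none of them called. Over all 16 alternatives Hk2 ran from -0.43 to 1.30, Eno1 from -0.52 to 0.63 and Pkm from -0.55 to 0.34, with no call.

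In tumours, 21 of all genes (0.0946%) were called between HDM and VEH by edgeR, 16.7% had an unadjusted p below 0.05, and DESeq2 called 1291. For 9 of the 10 genes the HDM estimate was below VEH, with a median of -0.24 beside -0.03 over all genes. The estimates of Pkm (-0.02), Pfkl (-0.06) and Hk1 (-0.07) were close to no change. All 10 were measured in the same tumour libraries, so their signs are not independent, and the share of all genes with this sign was not counted. Aldoa had the only unadjusted p below 0.05 among the 10 (log2 -0.36, SE 0.15, unadjusted p = 0.0334, adjusted p = 0.266). Its 3 HDM tumours lay below its 3 VEH tumours, as did those of Slc16a3 (log2 -0.52, SE 0.28, adjusted p = 0.376), and 10.7% of all genes had this pattern. Hk2 was the exception in sign, at 0.46 (SE 0.53, adjusted p = 0.702).

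The difference of the tumour-normal changes between HDM and VEH was tested directly. None of the 10 genes was called by edgeR or DESeq2, with edgeR calling 0% of all genes (9.39% at an unadjusted p below 0.05) and DESeq2 219 genes. Aldoa again had the only unadjusted p below 0.05 (log2 -0.47, SE 0.21, unadjusted p = 0.0461, adjusted p = 0.526). The other 9 estimates ran from -0.56 for Slc16a3 (SE 0.40) to 0.47 for Hk2 (SE 0.76). Without normal VEH replicate 2, Hk2 was at -0.51 and Eno1 moved from -0.11 to -0.77, neither of them called.

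Ratios between related genes of the same library do not depend on the scaling of libraries, so 8 were formed per kilobase and compared by an exact permutation test of tissue labels within treatment (two-sided, 400 arrangements, smallest possible p 0.005, adjusted over the 8). Ldha and Ldhb encode the subunits that mix into lactate dehydrogenase, and Ldhb favours the reaction back to pyruvate. The Ldha to Ldhb ratio was 0.389, 1.71 and 0.424 in normal VEH, 1.17, 0.517 and 0.457 in normal HDM, 80.9, 6.81 and 17.7 in tumour VEH and 56.6, 62.5 and 476 in tumour HDM. The tissues did not overlap, with normal VEH replicate 2 and HDM replicate 1 nearest the tumours and tumour VEH replicate 2 nearest the normal libraries. The mean log2 ratio was 6.27 higher in tumours (exact permutation adjusted p = 0.01333). When libraries were compared within name prefixes by an exact sign-flip test, this ratio and the other 3 called ones had an adjusted p of 0.0625. They were not called. Each had the smallest p that 6 pairs allow before adjustment, 0.03125. A smaller p was not possible for any of them, so no conclusion is drawn from the lack of a call. Ldha was 28.0% to 63.1% of the sum of both in normal tissue and 87.2% to 99.8% in tumours.

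Ldhb itself moved further than Ldha. It was at 545, 189 and 433 CPM in normal VEH, 172, 376 and 347 CPM in normal HDM, 9.35, 92.7 and 37.2 CPM in tumour VEH and at 1.46 to 8.54 CPM in tumour HDM. All tumours were below all normal libraries, a pattern of 19.9% of all genes. The log2 change was -3.07 (SE 0.85, adjusted p = 0.0172) under VEH and -5.67 (SE 0.96, adjusted p = 0.00101) under HDM. The VEH value was -4.06 without tumour VEH replicate 2, -2.48 without replicate 1, and -2.83 and not called without replicate 3 (adjusted p = 0.0707), and the HDM value was -5.05 without tumour HDM replicate 3. Tumour VEH replicate 2, with the most Ldhb of the tumours, had the most airway marker RNA (20490 CPM), and tumour HDM replicate 3, with the least Ldhb, had the least (24.2 CPM). The part of lung epithelium in the Ldhb values and in the ratio was not tested.

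The carriers shifted too. The Slc2a1 to Slc2a3 ratio, GLUT1 against the high-affinity GLUT3, was 5.47 to 17.5 in normal tissue and 23.7 to 66.2 in tumours without overlap, a mean log2 difference of 1.97 (exact permutation adjusted p = 0.01333). Slc2a1 made up 43.6% to 59.1% of the length-corrected RNA of the listed Slc2a genes in normal tissue and 81.8% to 90.7% in tumours. The list held Slc2a1 to Slc2a6, Slc2a8 to Slc2a10 and Slc2a12, and no other Slc2a gene was included. The Slc16a3 to Slc16a1 ratio, MCT4 against the widely expressed MCT1, fell by 2.05 on the log2 scale (exact permutation adjusted p = 0.03), from a median of 0.514 to 0.107. Its tissues overlapped, because normal VEH replicate 2 (0.175) lay within the tumour range of 0.0593 to 0.243. Without tumour VEH replicate 1 its adjusted p was 0.05 and it was not called. Slc16a3 itself was called under neither treatment, while Slc16a1 was at 1.37 under VEH (not called) and 2.43 under HDM (called). The Slc16a3 values are uncertain because of the Csnk1d counts given above, and so is this ratio.

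Pkm against Pdha1, a subunit of the pyruvate dehydrogenase that feeds the mitochondrial cycle, gave ratios of 2.03 to 4.26 in normal tissue and 8.34 to 14.0 in tumours. The mean log2 difference was 2.24 (exact permutation adjusted p = 0.01333). Pdha1 was not called (0.08 and 0.11, adjusted p = 0.642 and 0.459). The Hk2 to Hk1 ratio was 0.89 higher in log2 (exact permutation adjusted p = 0.08) and was called without normal VEH replicate 2 (1.21, exact permutation adjusted p = 0.008). Aldoa to Aldoc (1.88), Eno1 to Eno2 (0.65) and Pfkl to Pfkp (0.18) had exact permutation adjusted p-values of 0.056, 0.21714 and 0.265. Aldoa to Aldoc was called with 5 counts added in place of 0.5 (exact permutation adjusted p = 0.048) and without normal VEH replicate 1 (0.04) or 3 (0.02).

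**Figure D3:**
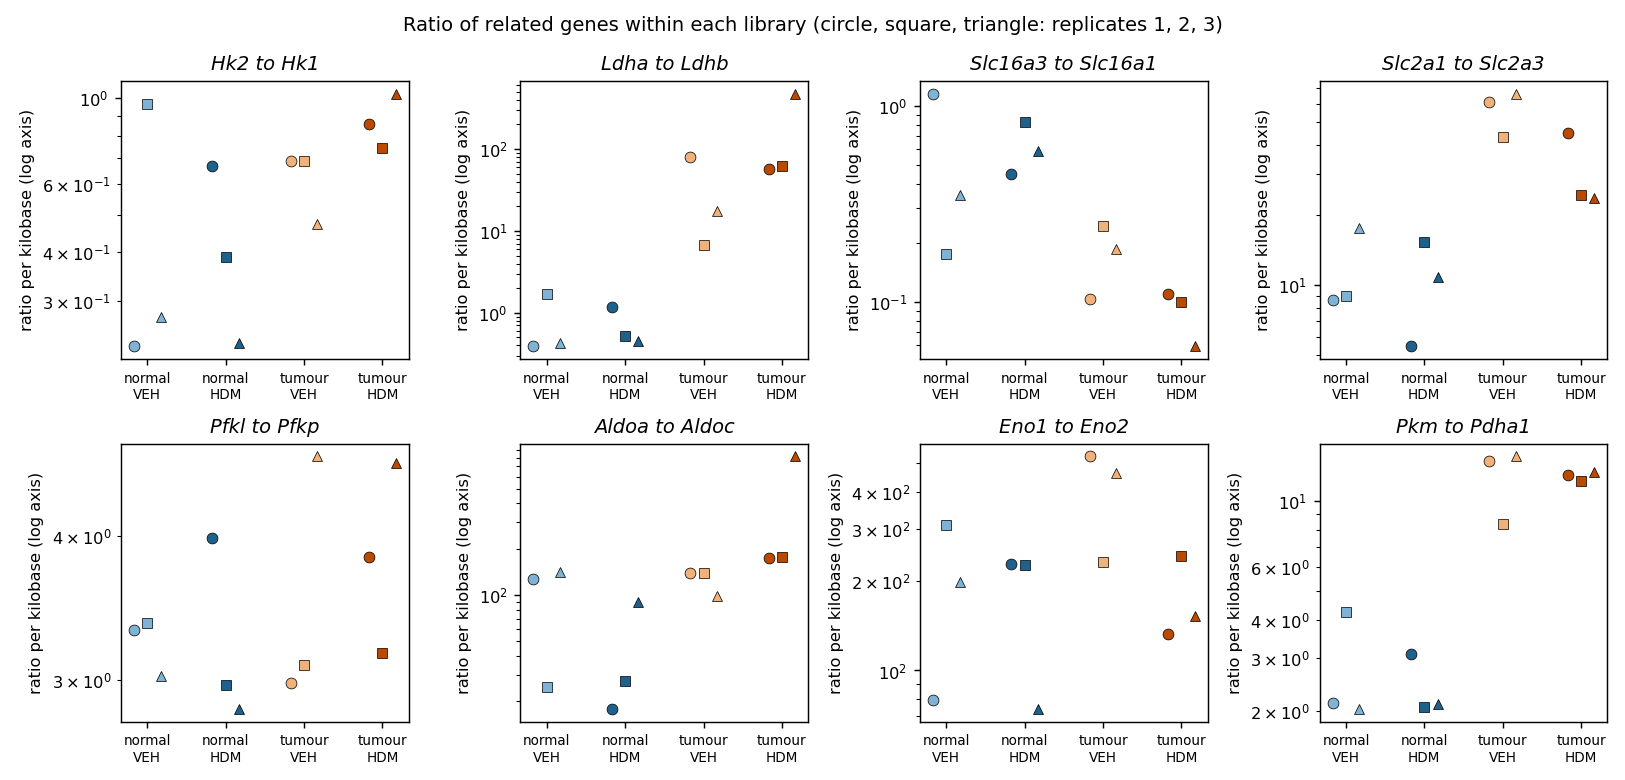
Ratio of counts per kilobase for 8 gene pairs in each library (log axes), by group; circles, squares and triangles are replicates 1, 2 and 3. Ldha to Ldhb, Slc2a1 to Slc2a3 and Pkm to Pdha1 show no overlap of normal and tumour libraries, with medians of 0.486 against 59.5, 9.88 against 44.1 and 2.12 against 12.3.

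The rest of the pathway was read from 7 gene lists written from general knowledge. Of 17 other glycolysis enzymes and isoforms tested, 9 were called higher and 2 lower under VEH, and 8 higher and 7 lower under HDM, with medians of 0.81 and 0.45. Of all genes tested, 18.2% were called higher and 20.6% lower under VEH, and 23% and 28.9% under HDM. The enzymes on either side of the 10 genes were among those higher: Gpi1, phosphoglucose isomerase (0.81 and 0.71 under VEH and HDM), Tpi1, triose phosphate isomerase (1.26 and 1.62), Gapdh (1.52 and 1.59) and Pgam1, phosphoglycerate mutase (2.10 and 1.76), all named after their values were seen. The genes called lower under HDM included Ldhb, Pklr, the liver-type pyruvate kinase (-5.38, adjusted p = 0.0134), and Hkdc1 (-3.53, adjusted p = 0.0479). Pklr and Hkdc1 were scarce, reaching at most 7.06 and 21.4 CPM in any library. Aldoc (-0.91, adjusted p = 0.414 under VEH and -3.29, adjusted p = 0.0137 under HDM) was at most 47.7 CPM, and Eno2 (1.38, adjusted p = 0.051 and 2.31, adjusted p = 0.00414) at most 7.98 CPM. Pfkp, the platelet-type phosphofructokinase, was called higher (0.72, adjusted p = 0.00781 and 0.45, adjusted p = 0.0452). Pgm1, which links glycogen to glycolysis, was not called (0.36 and -0.01, adjusted p = 0.355 and 0.975).

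Of 12 other glucose and lactate transporters tested, none was called higher and 5 lower under VEH, and 1 higher and 8 lower under HDM. The shares over all genes were 18.2% and 20.6% under VEH and 23% and 28.9% under HDM. The gene called higher was Slc16a1 (1.37, adjusted p = 0.0683 under VEH and 2.43, adjusted p = 0.00508 under HDM), at 37.3 to 197 CPM in normal and 157 to 441 CPM in tumour libraries. Those lower included Slc16a7, the lactate carrier MCT2 (-2.68, adjusted p = 0.00134 and -3.33, adjusted p = 0.000282), and Slc2a12 (-1.59, adjusted p = 0.0244 and -3.38, adjusted p = 0.000544). The insulin-regulated Slc2a4 (-2.85, adjusted p = 0.0454 and -6.10, adjusted p = 0.00215) was at most 10.5 CPM, and the sodium-coupled Slc5a1 was at -2.13 (adjusted p = 0.143) and -3.90 (adjusted p = 0.0191). Bsg, the chaperone that MCT1 and MCT4 need to reach the membrane, was at -0.44 (adjusted p = 0.068) and fell by 0.64 under HDM (adjusted p = 0.0105). Slc2a3 (-0.77, adjusted p = 0.193 and 0.08, adjusted p = 0.898) and Slc2a9 (-0.29, adjusted p = 0.358 and 0.10, adjusted p = 0.75) were not called.

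**Figure D4:**
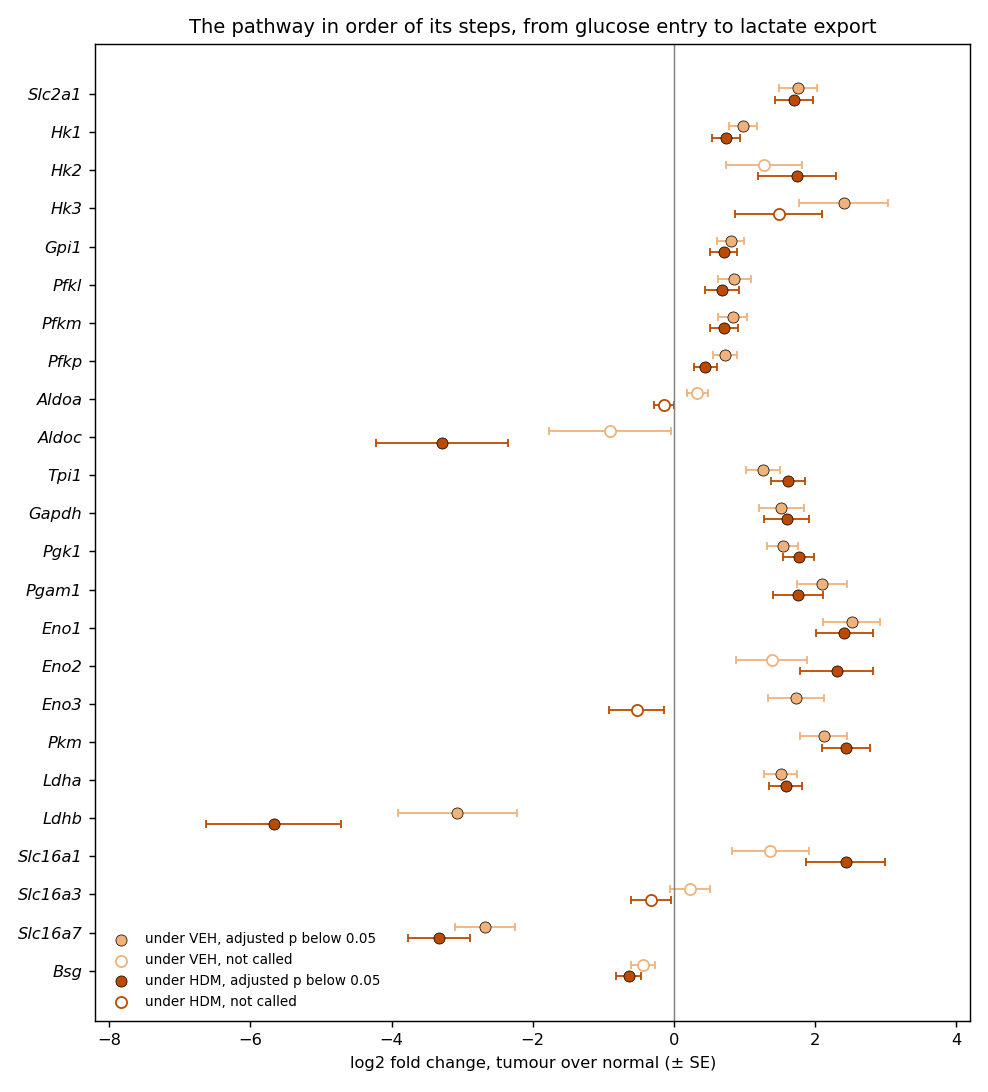
log2 fold change of tumour over normal tissue under VEH (light) and HDM (dark), with SE, for the 10 genes and their neighbours in the order of the pathway; filled points were called at an adjusted p below 0.05. Points lie right of 0 from Tpi1 to Eno1 and for Pkm and Ldha, and far left for Ldhb, at -3.07 and -5.67.

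Of 19 regulators tested, 4 were called higher and 7 lower under VEH, and 5 and 9 under HDM. Shares over all genes were 18.2% and 20.6% under VEH and 23% and 28.9% under HDM, so the counts of higher calls were near background. Hif1a, the hypoxia-inducible factor subunit tied to glycolysis, rose by 0.96 (SE 0.26, adjusted p = 0.0157) and 1.43 (SE 0.27, adjusted p = 0.00148), with 65.0 to 138 CPM in normal and 153 to 227 CPM in tumour libraries. Epas1, its relative HIF-2 alpha and a gene rich in lung endothelium, fell by 3.38 (SE 0.80, adjusted p = 0.00878) and 5.82 (SE 0.90, adjusted p = 0.000625), from 1739 to 3072 CPM in normal to 9.04 to 483 CPM in tumour libraries. All 10 endothelial markers fell in the same comparisons, as given above, and their part in the Epas1 value was not tested. Myc rose by 2.95 (SE 0.94, adjusted p = 0.0307) and 4.23 (SE 1.00, adjusted p = 0.00558), and ranged from 6.24 to 115 CPM in normal and from 264 to 389.8 CPM in tumour libraries. The highest normal Myc value was that of VEH replicate 2, without which the VEH change was 5.49, and the VEH call was lost whichever of the other 5 VEH libraries was left out (adjusted p from 0.0534 to 0.0772). Egln3, a prolyl hydroxylase that marks HIF subunits for decay, rose by 2.68 (adjusted p = 0.0461) and 4.70 (adjusted p = 0.00427). Its VEH change was 5.24 without normal VEH replicate 2 and it was not called whichever of the other 5 was left out (adjusted p from 0.0512 to 0.111). Its relative Egln2 was not called (0.02 and -0.34, adjusted p = 0.96 and 0.257). Mlxipl, a carbohydrate-sensing factor, was at or below 1.84 CPM in every library and was called lower (-5.48, adjusted p = 0.00446 and -3.43, adjusted p = 0.012). Hif3a, another HIF subunit, fell by 4.98 under VEH (adjusted p = 0.0163) and was at -2.48 under HDM (adjusted p = 0.0935), and Mlxip was not called (-0.41 and -0.35, adjusted p = 0.0585 and 0.082). Txnip, a brake on glucose uptake named after its values were seen, fell by 1.49 (adjusted p = 0.00197) and 1.20 (adjusted p = 0.0034).

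Of 14 genes between pyruvate and acetyl-CoA, 1 was called higher and 5 lower under VEH, and 2 and 5 under HDM. Among all genes the shares were 18.2% and 20.6% under VEH and 23% and 28.9% under HDM. Those lower included Pdk4 (-2.98, adjusted p = 0.0154 and -4.54, adjusted p = 0.00196) and Pdk2 (-2.54, adjusted p = 0.00216 and -3.16, adjusted p = 0.00044), kinases that switch pyruvate dehydrogenase off. Pcx, pyruvate carboxylase, was lower as well (-2.26, adjusted p = 0.0017 and -3.73, adjusted p = 0.000132), as was Mpc1, a subunit of the mitochondrial pyruvate carrier (-1.28, adjusted p = 0.00571 and -1.47, adjusted p = 0.00184). Pdhb was not called (0.04 and 0.27, adjusted p = 0.813 and 0.0753), but it was called higher under HDM without some single libraries, as given below.

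Calls for genes outside the 10 were often sensitive to single libraries: of the genes named by rule or after their values were seen, 14 of 33 calls under VEH and 11 of 41 under HDM were lost when some 1 library was left out. Under VEH these were Slc2a4, Slc2a12, Ldhb, Hk3, Hif1a, Hif3a, Myc, Egln3, Pdk4, Car12, Fbp2, H6pd, Pgls and Pygl, and under HDM they included Pklr, Hkdc1, Pfkm, Pfkp, Slc5a1, Bsg, Adm, Car12, Pgls and Taldo1. Calls were also gained without some 1 library, for 5 genes under VEH (Adm, Bsg, Eno2, Mlxip and Slc16a1) and 3 under HDM (Hif3a, Hk3 and Pdhb). Slc16a1 under VEH was called without normal VEH replicate 2 (2.20, adjusted p = 0.00661). Pdhb under HDM was called without normal HDM replicate 3 (0.37, adjusted p = 0.0336). It was also called without tumour HDM replicate 1 (0.46, adjusted p = 0.0111), 2 (0.34, 0.0475) or 3 (0.36, 0.0442).

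Several of the 10 genes share exon sequence with a gene on the opposite strand, and the sources used here do not give the strand setting of the counting, although the libraries were made by a stranded method. Gm69525, a noncoding gene opposite Pkm, had 54.1% to 65.2% as many counts as Pkm in every library. Gm39011 had 31.3% to 44.9% as many as Ldha, and Gm12868 had 7.25% to 14.7% as many as Slc2a1. For Pkm and Ldha these shares were on the whole lower in tumours (54.1% to 59.2% and 31.3% to 38.4%) than in normal tissue (58.2% to 65.2% and 36.4% to 44.9%). Cfap410 had 5.60% to 18.3% as many counts as Pfkl, and Tlcd3b 9.85% to 13.9% as many as Aldoa. Ccdc57, which also lies opposite Slc16a3, had 13.5% as many counts as Slc16a3 over all libraries. Reads of these pairs cannot be told apart from the counts alone. With the counts of 6 of these genes (Csnk1d included, Ccdc57 not) added to their partners, 7 and 9 of the 10 genes were called higher under VEH and HDM, Slc16a3 being the gene added under HDM. A narrower version with only the 3 noncoding genes, tried after that result had been seen, gave 7 and 8. Both settings were chosen after seeing the data. Named copies of the genes were rare, the most counted being Eno1b with 0.161% of the counts of Eno1.

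**Figure D5:**
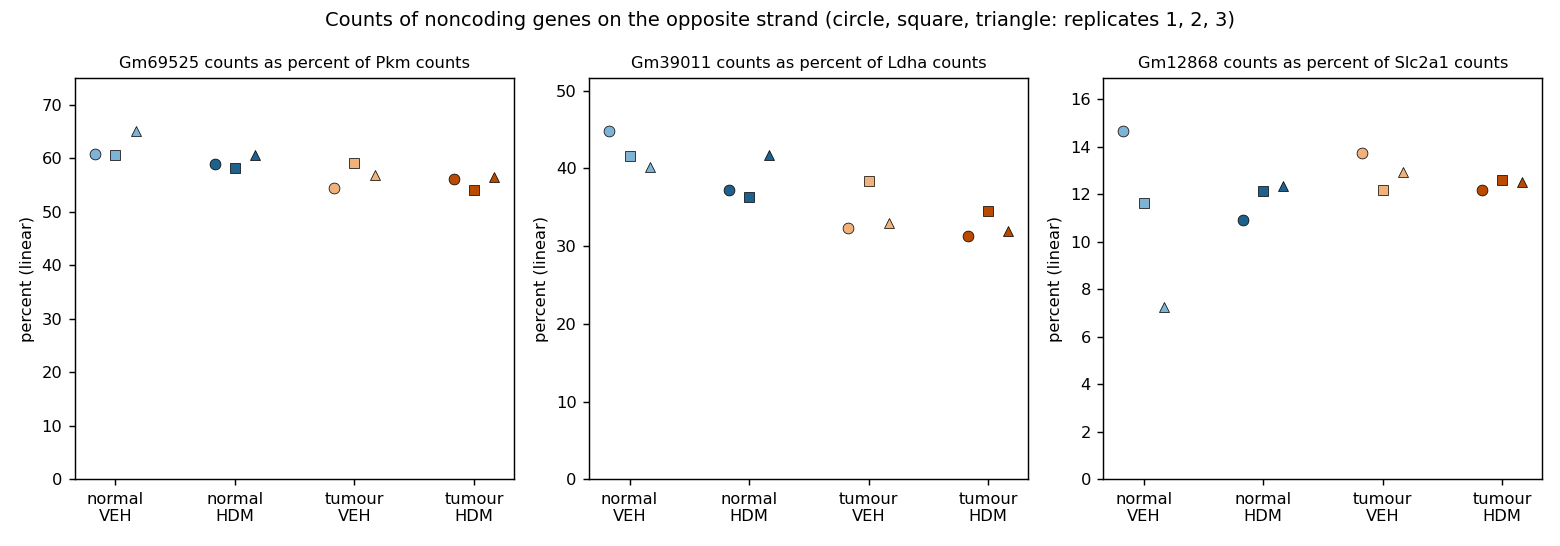
Counts of the noncoding genes Gm69525, Gm39011 and Gm12868 as a percentage of the counts of Pkm, Ldha and Slc2a1 in each library (linear axes from 0), by group; circles, squares and triangles are replicates 1, 2 and 3. The shares stay between 54.1% and 65.2%, 31.3% and 44.9%, and 7.25% and 14.7%.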

How the data were processed

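Whole dissected tissue gave the RNA, and paired-end reads came from stranded (dUTP) libraries, per the labels' protocols, which name both poly(A) selection and ribosomal RNA depletion without saying which was used. The authors deposited raw counts for each Ensembl gene beside its length, per the file headers. Trim Galore, STAR, featureCounts (Subread) and mm39 are named in the submitters' processing notes; versions, annotation and strand setting are not given in the sources used here. The labels give all libraries the same batch. Symbols came from GENCODE M39 on GRCm39, which held 78168 of the 78298 identifiers; the other 130 carried 0.143% of counts.

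The counts as deposited were fitted with edgeR 4.0.16 (R 4.3.3, limma 3.58.1): filterByExpr with a minimum count of 10, TMM factors, group means over all 12 libraries, robust quasi-likelihood tests, and Benjamini-Hochberg adjustment over all genes tested, with calls at 0.05. DESeq2 1.42.0 was an alternative. Each standard error is the absolute log2 change over the root of its F statistic. Ratios used counts plus 0.5 per kilobase of deposited length. Scripts were tested on simulated data. CPM intervals are not given, since replicate libraries of each group differed by far more than counting error.

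The 10 genes, the gene lists and the ratios were chosen with earlier results of these data known. Genes outside the 10 were named by rule: per list, up to 4 with the largest change among those called, up to 2 uncalled with the highest CPM, the ratio partners, and Hif1a, Epas1, Myc and Bsg; others are marked as named after their values were seen, and 1 gene that the rule selects is not reported here. The correlation check gave no sign that replicate numbers pair the samples: same-numbered libraries of the same treatment had correlations of deviations from -0.297 to 0.161. Libraries of the same prefix ran from -0.219 to 0.179, with 3 of 6 above 0.1 against 2 of 6 for replicate numbers. A pair sharing neither prefix nor replicate number reached 0.291 (normal VEH replicate 2 with tumour VEH replicate 1). This check therefore cannot tell whether prefixes pair the samples, and the main fit left libraries unpaired. Alternatives were other scalings and filters, DESeq2, fits of the compared groups only, blocks for replicate number or prefix, summed counts of opposite-strand genes (2 versions, added after seeing the data), removal of the 4 libraries of conflicting prefixes, and leaving out each library.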

Additional observations from a re-analysis of the deposited data

How the results depend on the processing

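Slc2a1, Pgk1, Eno1, Pkm and Ldha were called higher in tumours in all 17 alternatives under both VEH and HDM, with log2 changes from 1.36 (Ldha) to 3.20 (Eno1) under VEH and from 1.43 (Ldha) to 2.63 (Eno1) under HDM. Hk1 was called in 17 and 16 of them, Pfkl in 14 and 11, Hk2 in 4 and 14 (lost under HDM without a filter, adjusted p = 0.0756), Aldoa in 1 and 0, and Slc16a3 in 0 and 1. The number of the 10 genes called ran from 6 to 8 under each treatment when each library was left out. No alternative called any of the 10 between HDM and VEH or in the difference of differences. With the replicate block, which is not supported by the labels or by the correlation check, 7 genes were called under VEH and 7 under HDM (Pfkl was lost, adjusted p = 0.0525). The prefix block called Hk2 under VEH (2.11, adjusted p = 0.00721), as did DESeq2 (adjusted p = 0.0472). Among values called in either fit, 1 changed sign: Slc16a3 under HDM was -0.33 and not called, and was 0.33 and called (adjusted p = 0.0285) when counts of opposite-strand genes were added to 6 partnered genes, where Csnk1d had 255% to 995% of its counts. This setting was run first and a version with only the 3 noncoding genes was run after its result was seen; in the latter Slc16a3 is not altered. Among values called in neither fit, signs differed in 3 under HDM for tumour against normal tissue (Aldoa ran from -0.28 to 0.04), in 18 and 15 for HDM against VEH in normal tissue and tumours, and in 24 for the difference of differences. Both opposite-strand settings were chosen after seeing the data, and under them 7 and 7 of the 10 genes were called under VEH and 9 and 8 under HDM.

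Counts over all genes moved more. Between HDM and VEH in tumours, 21 genes were called, against 8 with library totals, 52 without a filter, 53 with at least 10 counts in every library, 1291 by DESeq2, 0 with only the compared groups, 1 with the replicate block, 0 without the 4 libraries of conflicting prefixes, and 0 to 24 when each library was left out. In normal tissue DESeq2 called 38 and edgeR 0. For the difference of differences DESeq2 called 219, and leaving out libraries gave 0 to 6. Between tumour and normal tissue under VEH, 8624 genes became 5603 without those 4 libraries and 5733 to 9070 when each library was left out. With library totals the split of higher against lower calls was 4797 to 3910 under VEH and 6161 to 5723 under HDM, against 4045 to 4579 and 5110 to 6402. Of the ratios, 4 were called, 3 to 5 when each library was left out and 5 with 5 counts added. Without the 4 libraries 0 were called (smallest possible p 0.0556, so no call could be made). By sign flips within prefixes 0 were called. There the 4 ratios called in the main test each had the smallest possible p, 0.03125 (sign-flip adjusted p = 0.0625), so no conclusion is drawn from this. With 3 libraries a group, smaller differences than those called may have been missed.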

Other observations

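Of 8 pentose phosphate genes tested, 2 were called higher and 1 lower in tumours under VEH, and 2 and 2 under HDM. Over all genes these shares were 18.2% and 20.6% under VEH and 23% and 28.9% under HDM. Rpia, which makes ribose 5-phosphate, the sugar of nucleotides, rose by 0.82 (adjusted p = 0.00175) and 0.49 (adjusted p = 0.0128), with every tumour (28.0 to 40.9 CPM) above every normal library (20.04 to 23.3 CPM). Pgls rose by 0.70 (adjusted p = 0.0363) and 0.77 (adjusted p = 0.018). H6pd, the enzyme that runs this branch inside the endoplasmic reticulum, fell by 1.01 (adjusted p = 0.0103) and 1.27 (adjusted p = 0.00215). Taldo1 was at -0.37 (adjusted p = 0.155) and fell by 0.77 under HDM (adjusted p = 0.00805), and Tkt and Pgd were not called. Of 12 genes of glucose and glycogen synthesis and breakdown, 1 was called higher and 4 lower under VEH, and 3 and 3 under HDM. The muscle glycogen phosphorylase Pygm (-4.11, adjusted p = 0.0046 and -4.87, adjusted p = 0.00135) and the liver form Pygl (-1.86, adjusted p = 0.0092 and -2.25, adjusted p = 0.00247) fell. Fbp1, a gluconeogenesis enzyme, was at -1.93 (adjusted p = 0.144) and fell by 6.28 under HDM (adjusted p = 0.00658), while Fbp2 fell by 5.08 under VEH (adjusted p = 0.0163) and was at -1.18 under HDM (adjusted p = 0.404). The brain form of phosphorylase, Pygb, was not called (0.28 and 0.03, adjusted p = 0.392 and 0.927).

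Of 18 other genes known to be induced by hypoxia, 3 were called higher and 3 lower under VEH, and 7 and 5 under HDM. Beside these stand shares over all genes of 18.2% and 20.6% under VEH and 23% and 28.9% under HDM. Vegfa, the vessel growth factor that lung epithelium makes in large amounts, was at 237 to 583 CPM in normal and 23.4 to 70.1 CPM in tumour libraries, and fell by 2.63 (adjusted p = 0.00167) and 3.06 (adjusted p = 0.000459). Alveolar epithelial markers summed to at least 18380 CPM in normal tissue and at most 9225 CPM in tumours, and their part in the Vegfa value was not tested. Adm was at 0.55 (adjusted p = 0.635) under VEH and rose by 2.61 under HDM (adjusted p = 0.0364). Without normal VEH replicate 2 its VEH value was 2.31 and called (adjusted p = 0.0375). Its HDM call was lost without normal HDM replicate 1 (adjusted p = 0.0778), 2 (0.107) or 3 (0.0778). It was also lost without tumour HDM replicate 3 (1.73, adjusted p = 0.14), so the treatments are not told apart by these calls. Car12 rose by 2.40 (adjusted p = 0.0461) and 2.79 (adjusted p = 0.0207), with at most 4.89 CPM in any library. Stc2 was at -1.98 (adjusted p = 0.107) and fell by 3.86 under HDM (adjusted p = 0.00883). Bnip3 (-0.45 and -0.25, adjusted p = 0.243 and 0.501) and Ddit4 (0.54 and 0.88, adjusted p = 0.277 and 0.0778) were not called.

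Joined by library-name prefix, 8 of the 10 genes were higher in the tumour in 6 of 6 pairs, of which 2 pairs cross treatments, as were 25.1% of all genes tested. The median fold within pairs was 6.65 for Eno1 (2.41 to 10.1), 5.07 for Pkm (2.75 to 7.75), 3.45 for Ldha (1.49 to 4.16) and 3.26 for Hk2 (1.61 to 6.47). Aldoa was higher in the tumour in 3 of 6 pairs and Slc16a3 in 4 of 6.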
